A study of Mus musculus with 18 samples.

Results

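The genes described here encode thrombospondins and other matricellular proteins, which are secreted into the extracellular matrix. They were chosen by name as Thbs1, Thbs2, Thbs3, Thbs4, Tnc, Tnxb, Postn, Sparc, Sparcl1 and Fn1, and all 10 were among the 27179 genes of the expression table. RNA was sequenced from 18 cultures of primary mesenchymal stem cells (MSCs) grown from the bone marrow of C57BL6 mice, with 6 young, 6 old and 6 rejuvenated old libraries. Young MSCs came from mice of 6 weeks and old MSCs from mice of 18 to 24 months, and neither received any treatment. The rejuvenated old group consisted of old MSCs kept for 7 days in wells with young MSCs behind a membrane with pores of 0.4 µm, which passes soluble factors and holds back cells. All libraries were made at day 7. A control in which old MSCs faced a layer of old MSCs was not analysed here, so the presence of a second cell layer and the age of its donors cannot be told apart.

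Matricellular proteins act less as scaffold than as signals. Thrombospondins, tenascins, periostin and SPARC bind collagen, growth factors and cell surface receptors such as integrins, CD36 and CD47, and so alter adhesion, the release of active TGF-beta and the growth of vessels. Fibronectin, a structural glycoprotein to which several of them bind, is included because its fibrils are a base on which the matrix is laid down. Stromal cells of the bone marrow are a known source of these proteins, whose levels change in many tissues with injury, fibrosis and age.

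The libraries held 22936251 to 29559194 reads on genes, and the values given below are normalized counts, the reads of a gene divided by 1 scaling factor for each library. Of all genes, 14353 had a mean of at least 10 normalized counts and were tested with limma on log2(normalized count + 1), calling genes at a Benjamini-Hochberg adjusted p under 0.05. The labels call the samples biological replicates without saying which mice they came from, so the p-values measure the spread between these cultures. The study's methods describe male donors, yet each of 4 Y-linked genes (Ddx3y, Eif2s3y, Kdm5d and Uty) had at most 2.06 normalized counts in any young library and at least 493 in every old and rejuvenated old library. Xist, the RNA that silences an X chromosome in female cells, lay at 21.2 to 41.2 in young, 1.97 to 14.4 in old and 4.83 to 10.3 in rejuvenated old MSCs. Whatever lies behind this difference and the age of the donors cannot be told apart in any comparison with young MSCs. Rejuvenated old replicate 5 had the lowest value of its group for most of the members, and results that rest on it are given with and without it. Of 11 stromal markers, 5 were higher and 6 lower in young than in old MSCs, beside 41.6% and 44.1% of all genes tested. Their summed level was 321541 to 348080 in young, 438909 to 464445 in old and 430815 to 462047 in rejuvenated old MSCs, carried mostly by Col1a1, Col1a2 and Cxcl12. Thy1 was near 0 and Nt5e was low in old MSCs (0 to 3.23 and 12.9 to 23.1) against 175 to 227 and 254 to 326 in young MSCs. Eng and Cxcl12 went the other way, with 147 to 175 and 8970 to 9438 in young against 7008 to 7681 and 185514 to 207265 in old MSCs. In bulk RNA, fewer cells of a type and less RNA per cell cannot be told apart.

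The start regions of 3 of the genes are shown because their levels differed strongly between young and old MSCs, Thbs2 and Tnxb being higher and Postn lower in young MSCs. Each window runs from 250 bases before to 50 bases after the start site, taken from RefSeq on GRCm38.p6, where 7 of the 10 genes had at least 1 window (9 windows in all). Capitals mark matches, on either strand, to the letters of 5 motifs that were searched: TATAAA (the TATA box), GGGCGG (the GC box), TGANTCA (the AP-1 site), GGAATG (the TEAD site) and CCAAT (the CCAAT box). Thbs2 lies on the minus strand at chr17:14694213-14694512, Tnxb on the plus strand at chr17:34670285-34670584 and Postn on the plus strand at chr3:54360857-54361156.
Thbs2: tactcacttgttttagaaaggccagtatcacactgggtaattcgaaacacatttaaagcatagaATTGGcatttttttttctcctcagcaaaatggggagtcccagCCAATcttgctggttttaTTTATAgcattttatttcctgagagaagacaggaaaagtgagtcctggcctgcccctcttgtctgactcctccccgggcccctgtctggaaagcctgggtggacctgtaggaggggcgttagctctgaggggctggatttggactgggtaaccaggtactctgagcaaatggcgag
Tnxb: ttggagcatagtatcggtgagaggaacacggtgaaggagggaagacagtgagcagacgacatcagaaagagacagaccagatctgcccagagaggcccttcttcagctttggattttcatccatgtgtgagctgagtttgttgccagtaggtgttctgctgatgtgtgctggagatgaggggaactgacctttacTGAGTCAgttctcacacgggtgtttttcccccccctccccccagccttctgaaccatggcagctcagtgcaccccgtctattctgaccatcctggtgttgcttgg
Postn: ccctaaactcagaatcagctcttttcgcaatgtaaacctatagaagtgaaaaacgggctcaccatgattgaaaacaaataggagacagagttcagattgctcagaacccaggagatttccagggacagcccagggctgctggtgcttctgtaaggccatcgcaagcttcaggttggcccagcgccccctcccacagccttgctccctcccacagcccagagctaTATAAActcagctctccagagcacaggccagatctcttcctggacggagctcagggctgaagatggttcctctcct

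The Thbs2 window held CCAAT on both strands and TATAAA on the strand opposite to the gene. In the Tnxb window the only match was TGANTCA, 55 bases before the start site used for that window. From this site on the Tnxb window reads ATG, the letters of a start codon. RefSeq places the start of the Tnxb gene further upstream, at chr17:34660453. Whether transcription begins at the site used for Tnxb was not tested. In the Postn window shown the only match was TATAAA, 26 bases before the start site. A second Postn window, at chr3:54359017-54359316, is not shown and held CCAAT on the opposite strand, 24 bases after its start site. Of 32851 windows of the same length, TATAAA was found in 13.6%, GGGCGG in 35.7%, TGANTCA in 7.81%, GGAATG in 14.7% and CCAAT in 37.4%. No motif overlapped another in these 3 windows. These are matches of letters only.

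Together the 10 genes made up 2.32% ± 0.0733 (SD, n = 6) of all normalized counts in young MSCs, 1.34% ± 0.0423 in old MSCs and 1.18% ± 0.117 in rejuvenated old MSCs. Without rejuvenated old replicate 5 the last share was 1.22% ± 0.0582 (n = 5). Most of the surplus in young MSCs was Thbs2, which alone was 1.12% of the counts there and ranked 1 among all genes by counts in each of the 6 young libraries. In the old libraries it ranked 60 to 80. Fn1 ranked 2 in every young library and 4 in every old library.

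Per kilobase of exon, which allows genes to be compared with each other, the order of levels in young MSCs was Thbs2, Fn1, Thbs1, Sparc, Tnc, Postn, Thbs3, Tnxb, Sparcl1 and Thbs4. Thbs2 had a mean level of 48525 normalized counts per kb there and Fn1 25813, while Thbs4 had 2.02. The ranges of Thbs1 and Sparc overlapped in young MSCs, as did those of Postn and Thbs3. In old MSCs the order was Fn1, Thbs1, Sparc, Thbs2, Postn, Tnc, Sparcl1, Thbs3, Tnxb and Thbs4, with Fn1 at 19336 and Thbs1 at 18781 per kb and their ranges overlapping. In rejuvenated old MSCs Thbs1 (19574 per kb) stood before Fn1 (16093 per kb), again with overlapping ranges, and Thbs3 before Sparcl1. The other places were as in old MSCs.

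**Figure D1:**
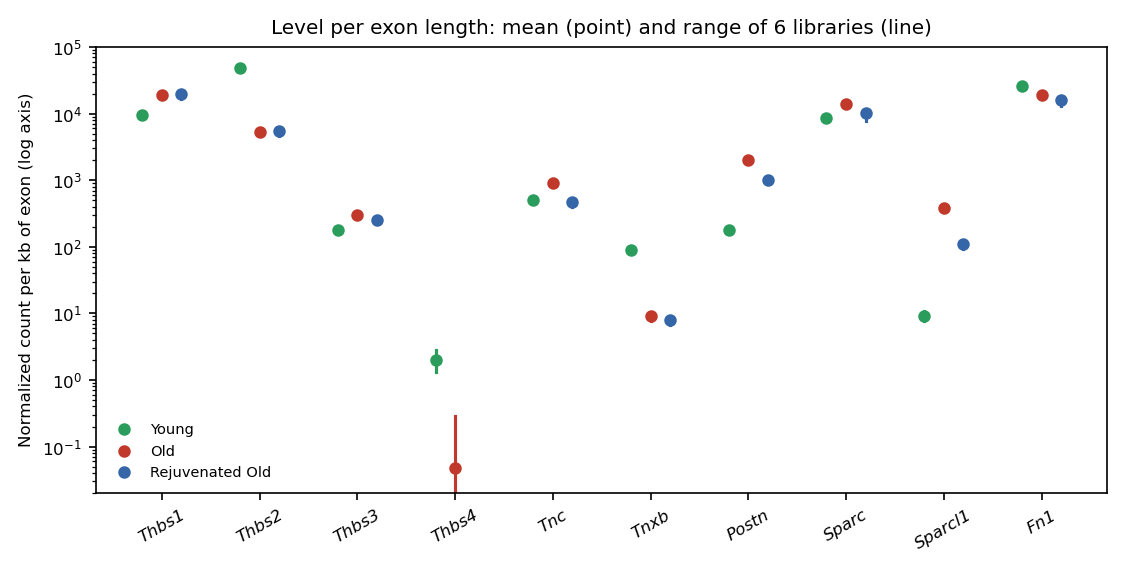
Level of each gene per kilobase of exon on a log axis, with the mean (point) and the range of 6 libraries (line) for young, old and rejuvenated old MSCs. Thbs2 falls from 48525 in young to 5320 per kb in old MSCs, and Thbs4, not drawn in rejuvenated old MSCs where it was 0 in every library, lies at the bottom of the scale.

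Each of the 9 genes with enough counts to be tested differed between young and old MSCs. In young MSCs, 3 were higher (Thbs2, Tnxb and Fn1) and 6 were lower (Thbs1, Thbs3, Tnc, Postn, Sparc and Sparcl1). Over all genes tested, 41.6% were called higher and 44.1% lower in this comparison, so a call by itself sets these genes little apart. Their median absolute log2 fold change was 0.97, beside 0.60 over all genes, and the median with its sign was -0.78, beside -0.02. The 6 young and 6 old libraries did not overlap for any of the 9, and did not overlap for 73.9% of all genes.

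In rejuvenated old against old MSCs, none of the 9 was called higher and 6 were called lower (Thbs3, Tnc, Postn, Sparc, Sparcl1 and Fn1), while Thbs1, Thbs2 and Tnxb did not pass the test. Of all genes, 21.0% were called higher and 20.6% lower. The median log2 fold change of the 9 was -0.27, beside 0.01 over all genes. The count higher was 0 also at an unadjusted p under 0.05 in limma, and with edgeR and DESeq2 on the recovered reads. The libraries of the 2 groups did not overlap for 6 of the 9, against 22.0% of all genes, and for 6 of the 9 without rejuvenated old replicate 5, against 23.4%.

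Between rejuvenated old and young MSCs, 5 genes were higher in rejuvenated old MSCs (Thbs1, Thbs3, Postn, Sparc and Sparcl1) and 4 lower (Thbs2, Tnc, Tnxb and Fn1). The shares over all genes were 44.1% higher and 41.5% lower. The libraries did not overlap for 7 of the 9, against 70.5% of all genes, and for 8 of the 9 without rejuvenated old replicate 5, against 72.9%. Each pair of the 3 comparisons has a group of libraries in common, so their values are set side by side and not counted against each other. Thbs3 and Tnc were among the genes that the study picked for display from these same libraries, and their values here are not independent evidence of a direction.

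**Figure D2:**
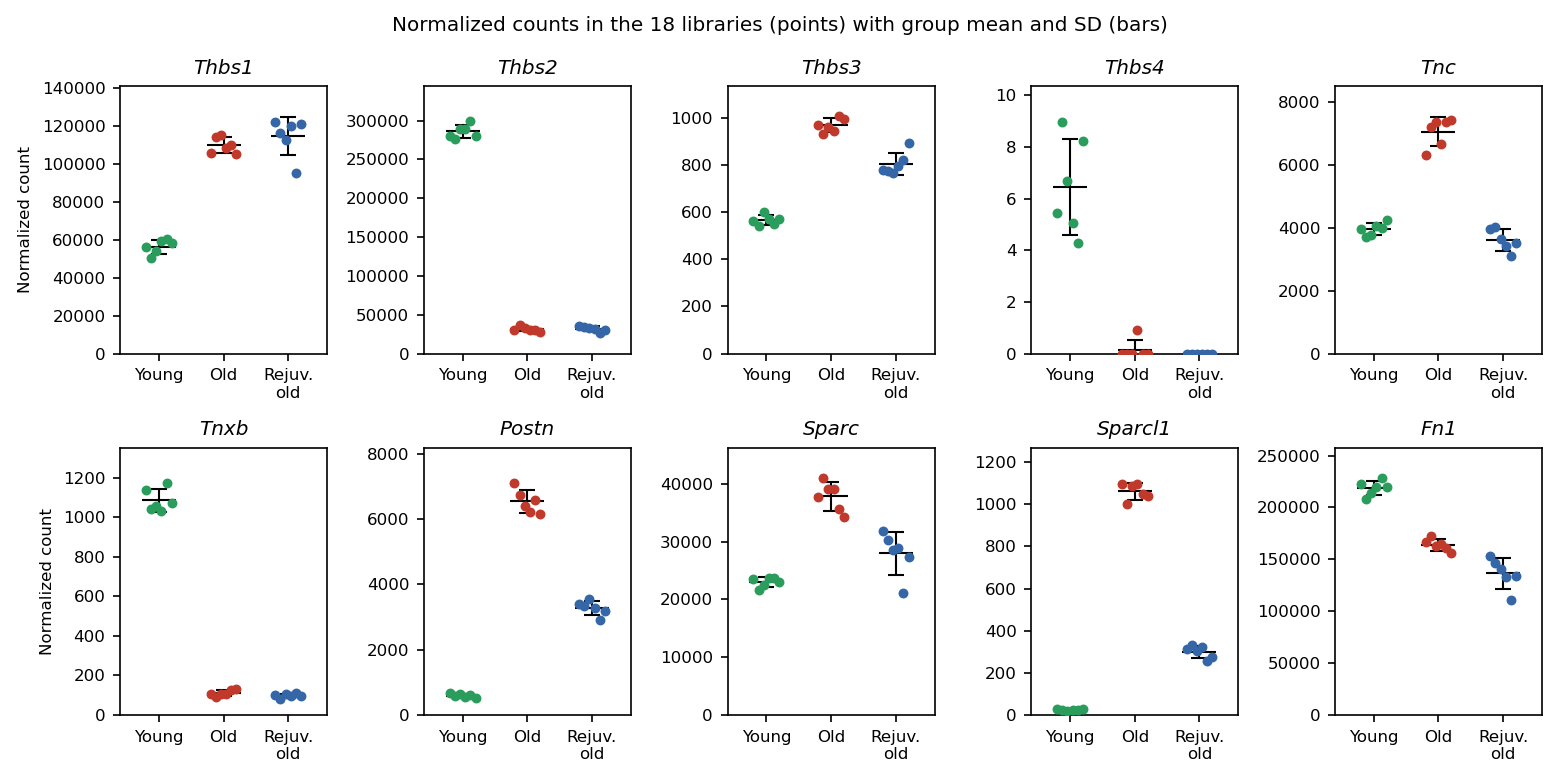
Normalized counts of the 10 genes in each of the 18 libraries (points), with the mean and SD of 6 libraries (bars), each panel on its own linear axis from 0. Thbs2, Tnxb and Thbs4 are high in young MSCs only, and Postn, Sparcl1, Sparc and Tnc are highest in old MSCs and lower in rejuvenated old MSCs.

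**Figure D3:**
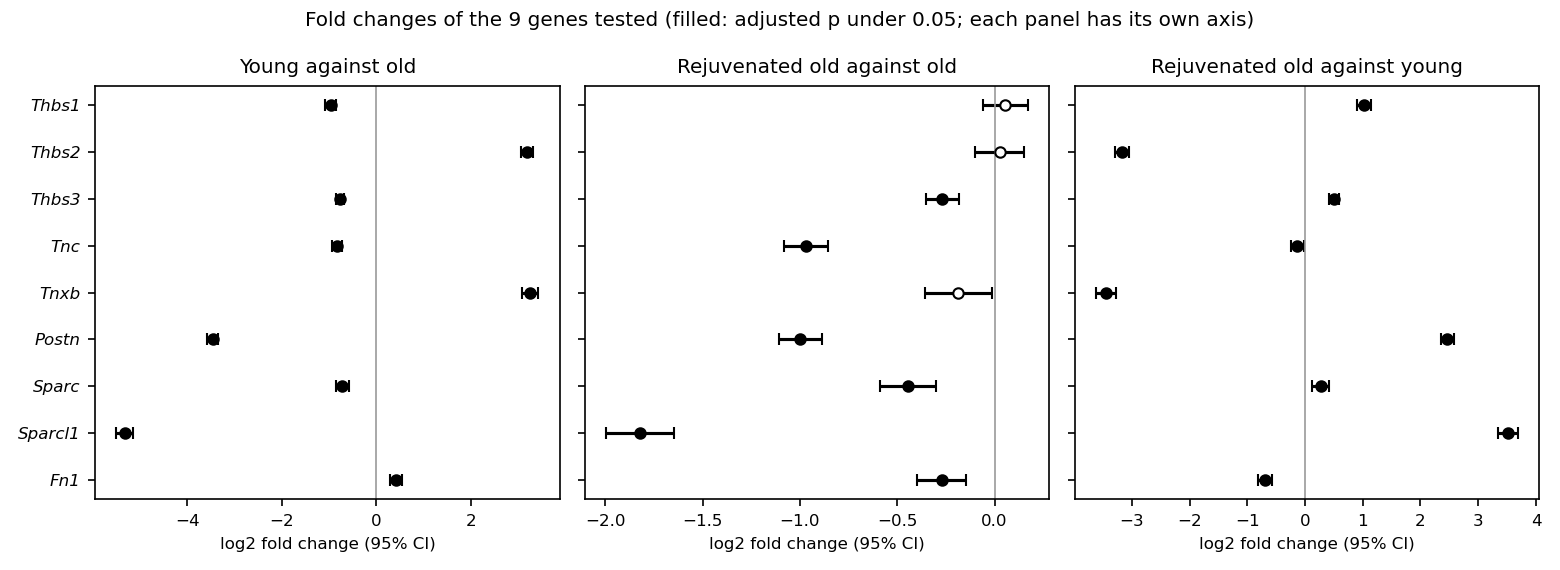
Log2 fold changes with 95% confidence intervals from limma for the 9 genes tested in the 3 comparisons, each panel on its own axis, filled where adjusted p was under 0.05. For rejuvenated old against old MSCs the points run from -1.82 for Sparcl1 to 0.06 for Thbs1.

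Thbs1 (gene 21825, chr2:118111876-118127133, plus strand) encodes thrombospondin-1, a trimeric protein that inhibits vessel growth through CD36 and CD47 and frees TGF-beta from its latent form. It had 50266, 57101 and 60105 normalized counts (lowest, median and highest library) in young MSCs. In old MSCs it had 105270, 109186 and 115344, and in rejuvenated old MSCs 95282, 118085 and 121815. All young libraries were thus below all others, while old and rejuvenated old libraries overlapped. Old MSCs held 1.95 times the level of young MSCs (young against old log2 fold change -0.97, SE 0.06, adjusted p = 1.74e-13). After co-culture, the log2 fold change from old MSCs was 0.06 with a 95% confidence interval of -0.06 to 0.17 (adjusted p = 0.46), and 0.11 without rejuvenated old replicate 5 (adjusted p = 0.0658). Rejuvenated old MSCs remained above young MSCs by a log2 fold change of 1.02 (adjusted p = 6.31e-14). In the genome annotation, 187 exon bases of Thbs1 are shared with a long noncoding gene on the other strand, Gm29233.

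Thbs2 (gene 21826, chr17:14665500-14694235, minus strand) encodes thrombospondin-2, the other trimeric member, which inhibits vessel growth and helps to shape collagen fibrils. It had 276868, 284909 and 299685 normalized counts in young MSCs, 28290, 30530 and 36136 in old MSCs, and 27054, 32623 and 35996 in rejuvenated old MSCs. The young libraries stood far above both other groups, which overlapped. The level in young MSCs was 9.12 times that in old MSCs (log2 fold change 3.19, SE 0.06, adjusted p = 1.01e-22), the opposite direction to Thbs1. Rejuvenated old against old MSCs gave a log2 fold change of 0.03 with a 95% confidence interval of -0.10 to 0.15 (adjusted p = 0.774), and of 0.07 without rejuvenated old replicate 5 (adjusted p = 0.318). Against young MSCs, rejuvenated old MSCs were lower, with a log2 fold change of -3.17 (adjusted p = 1.2e-22).

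Thbs3 (gene 21827, chr3:89215180-89226837, plus strand) belongs to the pentameric thrombospondins, which lack the part that inhibits vessels, and is known from the skeleton. It had 541, 567 and 603 normalized counts in young MSCs, 935, 968 and 1011 in old MSCs, and 768, 789 and 895 in rejuvenated old MSCs. The 3 groups did not overlap, with rejuvenated old MSCs between the others. Young MSCs were lower than old MSCs (log2 fold change -0.78, SE 0.04, adjusted p = 3.12e-14). Rejuvenated old MSCs were lower than old MSCs by a smaller amount (log2 fold change -0.27, SE 0.04, adjusted p = 1.86e-05) and higher than young MSCs (0.51, adjusted p = 8.38e-11). Mtx1 runs across it on the other strand without shared exon bases, and had means of 1353, 1205 and 1285 normalized counts in young, old and rejuvenated old MSCs.

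Thbs4 (gene 21828, chr13:92751590-92794818, minus strand), a pentameric thrombospondin known from tendon and muscle, had too few counts to be tested with the other genes. Its values were 4.26, 6.07 and 8.96 normalized counts in young MSCs (lowest, median and highest). In old MSCs it was at 0 in 5 libraries and at 0.909 in 1, and in rejuvenated old MSCs it was at 0 in all 6. In reads, that was 37 over the young libraries, 1 over the old and 0 over the rejuvenated old libraries. For their totals, young MSCs had 41.0 times the reads of old MSCs, with an exact 95% interval of 6.91 to 1661. They were 14.4-fold above a floor of 3 reads over the rejuvenated old group. That value takes the 37 young reads as exact, so it is not a strict lower bound. Neither the interval nor the floor covers the spread between cultures. When all 21697 genes with a read were tested, limma gave Thbs4 in young against old MSCs an adjusted p of 9.44e-11. Values of 0 in nearly all old and rejuvenated old libraries make this p a rough guide only.

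Comp, the remaining thrombospondin, is a cartilage and tendon protein and was named after its values were seen. It had 213 to 265 normalized counts in young, 14.8 to 41.4 in old and 13.4 to 28.5 in rejuvenated old MSCs. It was higher in young than in old MSCs (log2 fold change 3.21, adjusted p = 2.83e-13). The log2 fold change of rejuvenated old against old MSCs was -0.40 (adjusted p = 0.0976).

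Tnc (gene 21923, chr4:63959785-64047015, minus strand) encodes tenascin-C, a six-armed glycoprotein that appears in development and wound repair and weakens adhesion to fibronectin. It had 3700, 3977 and 4223 normalized counts in young MSCs, 6310, 7275 and 7401 in old MSCs, and 3100, 3569 and 4025 in rejuvenated old MSCs. Rejuvenated old libraries lay below every old library and overlapped the young ones. Young MSCs were lower than old MSCs (log2 fold change -0.83, SE 0.05, adjusted p = 1.45e-12), and rejuvenated old MSCs were at 0.51 of the old level (log2 fold change -0.97, SE 0.05, adjusted p = 3.82e-12). Against young MSCs the difference was small, -0.14 with a 95% confidence interval of -0.25 to -0.02 (adjusted p = 0.0257). That last call was lost without rejuvenated old replicate 5 (-0.09, adjusted p = 0.0834), without rejuvenated old replicate 4 (-0.12, adjusted p = 0.0586) or without young replicate 6 (-0.12, adjusted p = 0.0642). It grew to -0.23 with libraries scaled to the same total and to -0.24 relative to the median of its chromosome.

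Tnxb (gene 81877, chr17:34670535-34719815, plus strand) encodes tenascin-X, which links collagen fibrils and is missing in a form of Ehlers-Danlos syndrome. It had 1035, 1064 and 1176 normalized counts in young MSCs, 93.5, 108 and 130 in old MSCs, and 81.2, 99.0 and 111 in rejuvenated old MSCs. The young libraries stood apart and the other groups overlapped. Young MSCs had 9.65 times the level of old MSCs (log2 fold change 3.27, SE 0.08, adjusted p = 2.27e-20). After co-culture the log2 fold change from old MSCs was -0.19 with a 95% confidence interval of -0.36 to -0.02 (adjusted p = 0.0748). This passed the threshold without rejuvenated old replicate 5 (-0.22, adjusted p = 0.0415), without old replicate 2 (-0.24, adjusted p = 0.0226), with quantile normalization (-0.21, adjusted p = 0.0476) and relative to the median of its chromosome (-0.24, adjusted p = 0.025). The tenascins thus differed from each other in direction between young and old MSCs. Tnxb and Cyp21a2-ps, a pseudogene on the other strand, share 3 exon bases.

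Postn (gene 50706, chr3:54361109-54391037, plus strand) encodes periostin, which is induced by TGF-beta in periosteum and healing tissue and supports collagen assembly. It had 535, 588 and 661 normalized counts in young MSCs, 6156, 6488 and 7116 in old MSCs, and 2906, 3307 and 3548 in rejuvenated old MSCs. The groups did not overlap. Old MSCs held 11.0 times the level of young MSCs (young against old log2 fold change -3.47, SE 0.05, adjusted p = 2.38e-24). Rejuvenated old MSCs held 0.501 of the old level (log2 fold change -0.997, SE 0.05, adjusted p = 1.67e-12), and were still above young MSCs by a log2 fold change of 2.47 (adjusted p = 1.23e-21).

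Sparc (gene 20692, chr11:55394500-55423183, minus strand) encodes osteonectin, a calcium- and collagen-binding protein that is abundant in bone. It had 21574, 23250 and 23701 normalized counts in young MSCs, 34225, 38434 and 41050 in old MSCs, and 21026, 28682 and 31756 in rejuvenated old MSCs. Old libraries lay above all others, and rejuvenated old replicate 5, the lowest of all 18, lay below every young library. Young MSCs were lower than old MSCs (log2 fold change -0.72, SE 0.07, adjusted p = 1.72e-09), as were rejuvenated old MSCs (-0.45, SE 0.07, adjusted p = 2.2e-05). Without rejuvenated old replicate 5 the latter was -0.37 (adjusted p = 1.66e-06). Rejuvenated old MSCs were higher than young MSCs by 0.27 on the log2 scale (adjusted p = 0.00102), and by 0.16 with quantile normalization (adjusted p = 0.027).

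Sparcl1 (gene 13602, chr5:104079111-104113733, minus strand) encodes hevin, the close relative of SPARC, which opposes cell adhesion and binds collagen. It had 21.2, 25.2 and 29.9 normalized counts in young MSCs, 999, 1067 and 1097 in old MSCs, and 257, 308 and 332 in rejuvenated old MSCs. The groups did not overlap, and no other gene of the 9 showed a larger fold in young against old or rejuvenated old against old MSCs, under any alternative tried. Old MSCs held 41.6 times the level of young MSCs (young against old log2 fold change -5.33, SE 0.08, adjusted p = 3.57e-24) and 3.53 times that of rejuvenated old MSCs (rejuvenated old against old -1.82, SE 0.08, adjusted p = 1.45e-13). By its absolute log2 fold change after co-culture it ranked 46 of all genes tested. Rejuvenated old MSCs were above young MSCs by a log2 fold change of 3.51 (adjusted p = 8.28e-21), and in that comparison Sparcl1 had the largest fold in 29 of 33 settings.

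Fn1 (gene 14268, chr1:71585520-71653200, minus strand) encodes fibronectin, the ligand of integrin alpha5 beta1. It had 208103, 220001 and 228428 normalized counts in young MSCs, 155982, 163583 and 172453 in old MSCs, and 110559, 137644 and 153563 in rejuvenated old MSCs. The groups did not overlap, with young MSCs highest and rejuvenated old MSCs lowest. Young MSCs were higher than old MSCs (log2 fold change 0.42, SE 0.06, adjusted p = 1.1e-06). Rejuvenated old MSCs were lower than old MSCs (-0.27, SE 0.06, adjusted p = 0.00094) and lower than young MSCs (-0.69, SE 0.06, adjusted p = 3.05e-10). Without rejuvenated old replicate 5 the difference from old MSCs was -0.21 (adjusted p = 0.000787). The median gene of chromosome 1 was itself lower in young than in old MSCs (log2 fold change -0.69 over 800 genes), and relative to that median Fn1 was at 1.11 in young against old (adjusted p = 5.4e-14) and at -1.38 in rejuvenated old against young MSCs (adjusted p = 8.92e-16). Fn1 shares 227 exon bases with Apol7d, an antisense gene with means of 5.31, 13.8 and 14.3 normalized counts in young, old and rejuvenated old MSCs. The strand setting of the counting is not given in the sources used here.

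Markers of several other cell types differed between young and old MSCs. Their counts stand beside shares over all genes tested of 41.6% higher and 44.1% lower in young than in old MSCs. In rejuvenated old against old MSCs the shares were 21.0% higher and 20.6% lower. All 7 macrophage markers were lower in young MSCs, with sums of 914 to 1034 normalized counts in young, 11733 to 14950 in old and 11597 to 14330 in rejuvenated old MSCs. Lyz2 made up most of the sums in old and rejuvenated old MSCs (means of 10154 and 9769). The defining genes Ptprc and Adgre1 were at 0 in every young library. After co-culture, 1 macrophage marker was higher and 1 lower than in old MSCs.

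Markers of bone, fat and contractile cells were also mostly lower in young MSCs. All 6 osteoblast markers were lower, with sums of 1788 to 2069 in young, 4066 to 4184 in old and 3794 to 4316 in rejuvenated old MSCs, carried mostly by Runx2 and Alpl. After co-culture 4 osteoblast markers were lower and 1 was higher than in old MSCs. All 6 adipocyte markers were lower in young MSCs, Plin1 being at 0 there, with sums of 16838 to 19369, 43179 to 45578 and 47581 to 60623 in the same order of groups. Lpl alone carried most of these sums, with means of 17251, 32968 and 40583. After co-culture 4 adipocyte markers were higher and 1 lower than in old MSCs. Of 7 contractile cell markers, 2 were higher and 5 lower in young MSCs, with sums of 46150 to 48891, 114511 to 126819 and 118914 to 137071, carried mostly by Acta2.

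Tendon, platelet lineage and endothelial markers did not move as lists in 1 direction. The 5 tendon markers summed to 3153 to 3375 in young, 336 to 418 in old and 278 to 348 in rejuvenated old MSCs, a sum set by Scx and Fmod, which were higher in young MSCs. Mkx was lower in young MSCs (log2 fold change -0.54, adjusted p = 9.24e-07), Tnmd was at 0 in every young library and Kera in every old and rejuvenated old library. Platelet lineage markers, listed because platelets carry thrombospondin-1, summed to 894 to 1153, 705 to 848 and 904 to 1125 over 5 genes. Only Itga2b was higher in young MSCs, while Pf4, Ppbp and Gp1bb were lower (median log2 fold change of the 4 tested -3.24), and Pf4 and Gp9 were at 0 in every young library. The 6 endothelial markers summed to 150 to 208, 127 to 171 and 145 to 211, with 2 higher and 1 lower in young MSCs among the 3 tested, and Cdh5 at 0 in every old library. The part of these cell types in the results was not tested.

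Receptors of the matricellular proteins were examined as a list of 18 genes, of which 17 were tested. In young against old MSCs 3 were higher and 13 lower, with a median log2 fold change of -0.58. Itgb6, which was not tested, had 13.4 to 31.4 normalized counts in young and 1.92 to 15.1 in old MSCs. Of all genes tested, 41.6% were higher and 44.1% lower in this comparison. The integrin genes Itga3 (3.66, adjusted p = 7.34e-17) and Itga8 (2.38, adjusted p = 8.95e-16) had the largest rises. Cd36, the scavenger receptor that thrombospondin-1 binds, had the largest fall (-7.72, adjusted p = 5.5e-20), from 242 to 283 normalized counts in old to 0 to 1.07 in young MSCs, followed by Itga9, a subunit of a tenascin-C receptor (-6.43, adjusted p = 1.41e-19). Fold changes of genes so near 0 depend on the 1 added before the logarithm. Cd36 is also made by macrophages and fat cells, whose listed markers were all lower in young than in old MSCs. In rejuvenated old against old MSCs, 4 adipocyte markers were higher and 1 lower, and 1 macrophage marker was higher and 1 lower. The part of these cells in the values of Cd36 was not tested. After co-culture 3 receptors were higher and 9 lower than in old MSCs, beside 21.0% and 20.6% of all genes. The largest rises were in Cd47 (0.18, adjusted p = 0.00787) and Calr (0.13, adjusted p = 0.036). The largest falls were in Cd36 (-1.02, adjusted p = 0.00038) and Itga8 (-0.91, adjusted p = 4e-07).

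Of 10 genes of TGF-beta signalling, all tested, 3 were higher and 7 lower in young than in old MSCs. The shares over all genes were 41.6% and 44.1%. Tgfbr2, the type II receptor, was higher by a log2 fold change of 3.29 (adjusted p = 8.56e-24) and Smad3, which carries the signal to the nucleus, by 1.31 (adjusted p = 2.04e-21). The ligand genes Tgfb2 (-2.18, adjusted p = 5.17e-20) and Tgfb3 (-1.30, adjusted p = 4.94e-20) were lower. After co-culture 6 of the 10 genes were lower than in old MSCs, beside 20.6% of all genes. These included Tgfb2 (-0.60, adjusted p = 2.45e-08) and Tgfbr2 (-0.33, adjusted p = 4.38e-05). The single gene of this list that was higher, beside 21.0% of all genes, was Smad7, an inhibitor of the pathway (0.26, adjusted p = 3.9e-05).

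Other matricellular genes formed a list of 18, of which 14 were tested. In young against old MSCs 8 were higher and 6 lower, beside 41.6% and 44.1% of all genes, with a median log2 fold change of 0.70. The filter left out 2 genes seen mostly in young MSCs. Spock3 had 9.96 to 20.7 normalized counts there and 0 in all other libraries, and Vtn had 9.11 to 21.9, against 0 to 0.985 in old MSCs. Wisp3 and Spock1, also left out, were low in all groups. Among the genes tested, the largest rises were in Smoc2, a SPARC relative (5.95, adjusted p = 1.87e-21), and Tnr, the tenascin of the nervous system (5.11, adjusted p = 2.41e-12). Tnr had 0 to 3.01 normalized counts in old MSCs and passed the filter only through young MSCs (43.8 to 66.4). The size of its fold change therefore depends on the 1 added before the logarithm. The largest falls were in Smoc1, the sister gene of Smoc2 (-9.12, adjusted p = 3.24e-21), and Spp1, which encodes osteopontin (-5.39, adjusted p = 1.78e-25). Smoc1 had 1.01 to 7.62 normalized counts in young MSCs, so the size of its fold change depends on the 1 added before the logarithm. After co-culture 6 were higher and 5 lower than in old MSCs, beside 21.0% and 20.6% of all genes. The CCN family genes Nov (1.05, adjusted p = 1.2e-13) and Wisp2 (0.95, adjusted p = 1.56e-14) rose most, and Smoc2 (-1.38, adjusted p = 2.39e-08) and Tnn, tenascin-N (-0.89, adjusted p = 0.017), fell most. Tnn had only 3.23 to 11.8 normalized counts in old and 1.89 to 5.15 in rejuvenated old MSCs, which overlapped. It passed the filter through young MSCs (18.5 to 34.8), and its fold change depends on the 1 added before the logarithm. So in this list genes were called in both directions after co-culture.

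**Figure D4:**
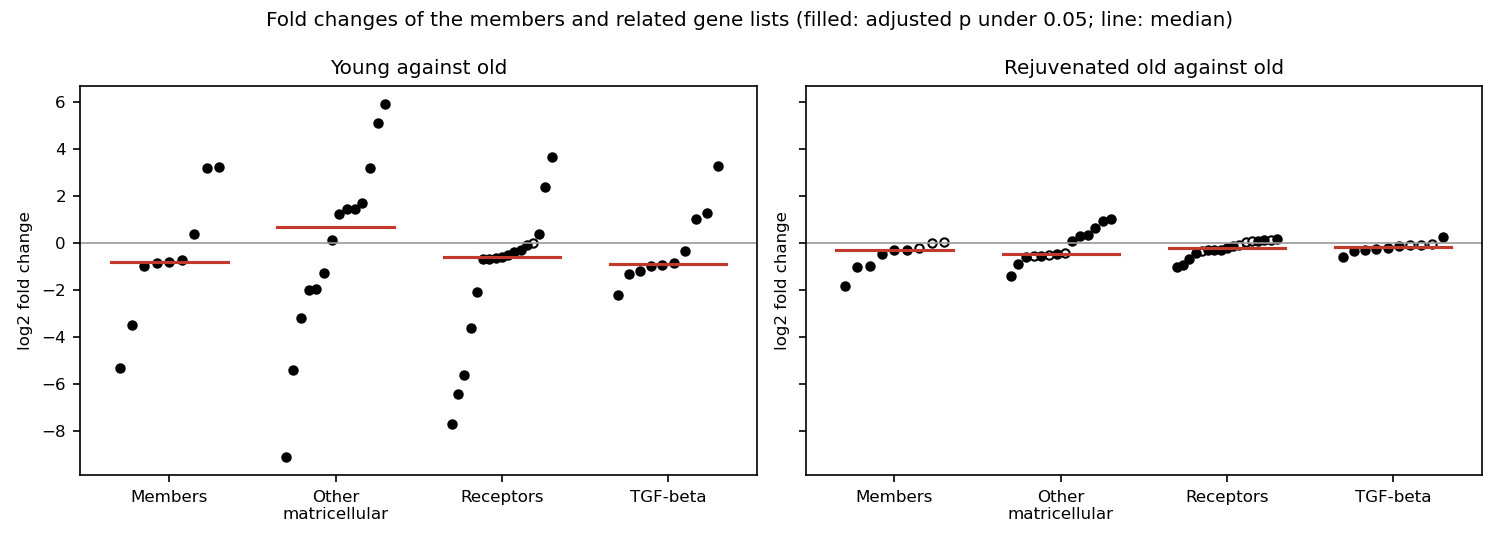
Log2 fold change of each tested gene among the members, the other matricellular genes, the receptors and the TGF-beta genes, filled where adjusted p was under 0.05 and with the median as a line, for young against old (left) and rejuvenated old against old MSCs (right). The medians in rejuvenated old against old MSCs were -0.27, -0.44, -0.18 and -0.17.

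Within groups, rejuvenated old replicate 5 was the lowest library of its group for 7 of the 9 genes tested, where it was the lowest for 26.1% of all genes. Its median difference from the group mean over the 9 genes was -0.22 on the log2 scale, beside -0.01 over all genes. Young replicate 2 was the lowest of the young libraries for 6 of the 9 genes (18.3% of all genes). The 36 pairs of the 9 genes had Pearson correlations of -0.58 to 0.95 over the 18 libraries after group means were subtracted, with a median of 0.26, and of 0.05 without rejuvenated old replicate 5. Sparc and Fn1 were the closest pair, at 0.95, and at 0.88 without that library. Without it, the log2 fold changes of rejuvenated old against old MSCs were -0.27 for Thbs3, -0.93 for Tnc, -0.96 for Postn and -1.78 for Sparcl1. The genes share libraries and their scaling, so the correlations are descriptions only.

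**Figure D5:**
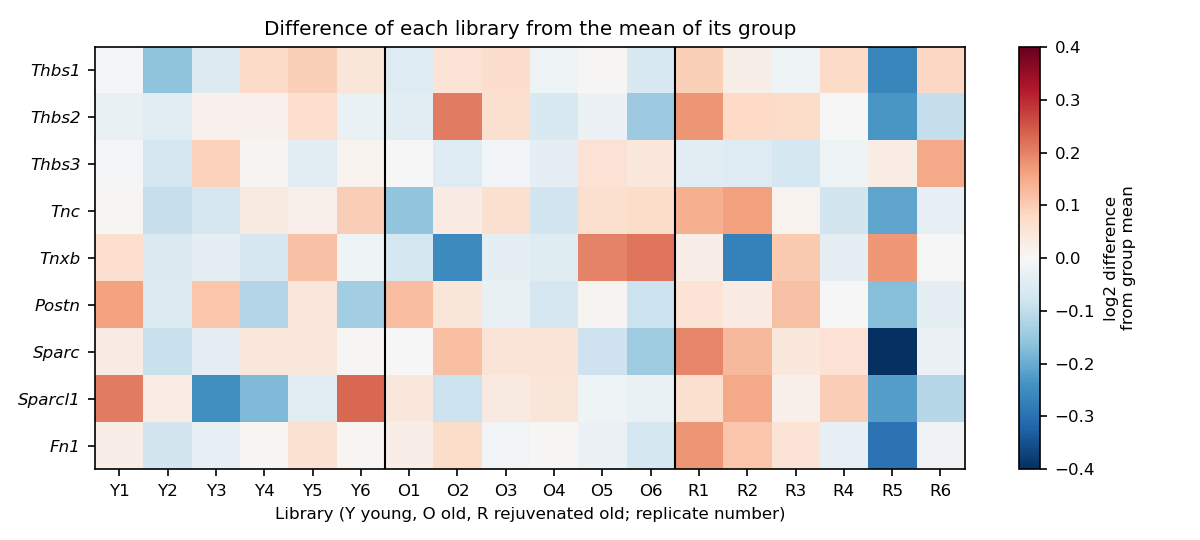
Difference of each library from the mean of its group on the log2 scale (colour) for the 9 genes tested, with the 18 libraries in columns. Rejuvenated old replicate 5 (R5) is blue for 7 of the 9 genes, with Tnxb and Thbs3 as the exceptions.

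Among 14352 other genes, the one whose values followed each member most closely within groups over the 18 libraries was Lox for Thbs1 (Pearson r 0.94), Mtpn for Thbs2 (0.93) and Matk for Thbs3 (0.83). It was Necap1 for Tnc (0.87), Maea for Tnxb (0.82) and Sfrp4 for Postn (0.82). For Sparc it was Srpr (0.96), for Sparcl1 Wbp11 (0.89) and for Fn1 Ano6 (0.96). Without rejuvenated old replicate 5 the same pairs had values of 0.80 to 0.93, but they were picked with that library included. Each partner is the highest of 14352, so the search by itself favours high values. No chance level was computed, and the pairs are descriptions only.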

How the data were processed

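RNA of 18 MSC cultures was sequenced, with poly(A)-selected stranded libraries. According to the study's methods and the submitters' processing notes, the authors mapped reads with HISAT2 against mm10, counted with StringTie and featureCounts and applied the normalization of DESeq2. Versions, annotation, strand setting and filters are not given in the sources used here. What the authors deposited is a signal for each gene in each library, namely its count over 1 size factor. Every value was a whole multiple of 1 step per library, and 100% gave whole reads within a tolerance of 0.01 (largest departure 5.55e-05).

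Genes with a mean of at least 10 were tested as log2(value + 1) with limma 3.58.1 (R 4.3.3), a mean per group, a prior variance following the mean, and adjusted p under 0.05. Exon lengths and gene positions came from GENCODE vM21 on GRCm38, and the start regions from RefSeq on GRCm38.p6. Alternatives covered pseudocounts (0.5 and 10), filters (all genes with a read, and a mean of at least 50), scaling, a replicate block and 2-group fits. They also covered a constant prior variance, the chromosome median, a stricter threshold, edgeR 4.0.16 and DESeq2 1.42.0 on the recovered reads, and each library left out. The steps were tested on simulated counts. Other steps used scipy 1.17.1, numpy 2.4.6, matplotlib 3.10.9 and pandas 2.3.3 in Python 3.11.15.

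All 10 members were named with every library. From each further list, the 2 largest rises and 2 largest falls among calls were named, and for each member the gene with the highest correlation within groups. The members and lists were chosen with earlier results of these data known. No gene was picked by hand from the table except Comp, Xist, the Y-linked genes and the cell type markers given by name, and those of the closing section.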

Additional observations from a re-analysis of the deposited data

Results flagged for a closer look

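In 29 sets of 6 libraries, the highest or lowest value was compared with its nearest neighbour, and 2 stood apart by more than the 95% limit of Dixon's test, which chance passes in about 1 of 20 sets. Thbs1 was at 95282 normalized counts in rejuvenated old replicate 5, with the next library of that group at 112742. This library was also the lowest of its group for most other members. Thbs4 was at 0.909 normalized counts, which is 1 read, in old replicate 4 and at 0 in the other old libraries. In such a set any single read passes the limit, so the rate of 1 in 20 does not apply to this flag.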

How the results depend on the processing

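The share of counts and the counts of genes without overlap were also computed without rejuvenated old replicate 5, chosen after seeing the data, and stayed within the spread or within 1.5 times. Under 32 alternatives no called fold change of a member changed direction. The count of members called higher in young against old MSCs was 3 to 4 (4 without a filter on low values, which admits Thbs4) and the count lower was 6 throughout. In rejuvenated old against old MSCs the counts were 0 higher and 6 to 7 lower, and in rejuvenated old against young MSCs 5 higher and 3 to 5 lower. Of 864 values of fold changes, 855 kept their side of the threshold. The others concern Tnxb in rejuvenated old against old MSCs, called in 5 alternatives, and Tnc in rejuvenated old against young MSCs, not called in 4, of which 1 is an adjusted p under 0.01. Samples with the same replicate number did not deviate together (correlations of -0.152 to 0.0736 between groups, none over 0.1, and 1 of 18 libraries closest to its own number). With the replicate number as a replicate block, Tnxb was called in rejuvenated old against old MSCs (-0.19, adjusted p = 0.0369), giving 7 members lower, and no other call of a member changed. Another scaling moved the median of all genes by less than 0.1 on the log2 scale. Depth limits the result for Thbs4, which rests on 37 reads in young MSCs. Sparcl1 also had few reads there, 19 to 29 per library. With a pseudocount of 10 its log2 fold change was -4.92 in young against old MSCs, beside -5.33 in the main fit. In rejuvenated old against young MSCs it was 3.13, beside 3.51.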

Other observations

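Further genes that encode matricellular proteins, picked after their values were seen, reached levels within the range of the members. Spp1 had 2596 to 2857 normalized counts in young, 110455 to 119241 in old and 62098 to 90406 in rejuvenated old MSCs, so that rejuvenated old MSCs were below old MSCs (log2 fold change -0.60, adjusted p = 5.96e-07). Ctgf, a CCN family gene, had 1923 to 2118 in young, 17881 to 20001 in old and 21014 to 24260 in rejuvenated old MSCs, and was higher in rejuvenated old than in old MSCs (0.29, adjusted p = 1.42e-06).

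The median gene of chromosome 1, which carries Fn1, was not the only one displaced in this way. For young against old MSCs the medians on the log2 scale were -0.75 on chromosome 16, -0.46 on chromosome 12 and 0.61 on chromosome 7, none of which carries a member. On chromosome 17, with Thbs2 and Tnxb, it was 0.22, and relative to it their log2 fold changes were 2.97 and 3.05.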
